A study of Mus musculus with 8 samples.

Results

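The genes that make sterols and fatty acids, with their SREBP regulators, were followed in 8 RNA-seq libraries of mouse embryonic fibroblasts. The members are 31 listed genes, chosen by name with earlier results of these data known, of 24062 genes in the count table, which also holds 1153 repeat subfamilies. They comprise 17 genes of sterol synthesis, 8 of fatty acid synthesis, 5 regulators and 1 gene of sterol transport. All cells were of the line 6KO iMEFs, which lacks the H3K9 methyltransferases Setdb1, Suv39h1/2, Ehmt1 and Ehmt2 and also Ring1b, a catalytic subunit of the Polycomb complex PRC1, so the controls carry these deletions too. The control group received a control shRNA. The knockdown group received a lentiviral shRNA against Ring1a, the paralogue of Ring1b. The inhibitor group received the control shRNA and 1 µM DS3201, which blocks the catalytic activity of EZH1/2, for 7 days, and the combined group received the Ring1a shRNA and the same DS3201 treatment. Each group had 2 libraries, 1 in each of 2 sets that the column names mark 20 and 28. The labels do not say that the 2 came from separate cultures. Without a term for the set, p-values therefore reflect only how far the libraries of a group differ, which may be technical. With the set as a block, they reflect only what remains of that spread once the set difference is taken out.

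Cells build cholesterol from acetyl-CoA through mevalonate, squalene and lanosterol, and build fatty acids from acetyl-CoA through malonyl-CoA, followed by elongation and desaturation. SREBP transcription factors drive both routes. When membrane sterol is low, the escort protein SCAP carries SREBP from the endoplasmic reticulum to the Golgi, where proteases release its active part, and INSIG proteins hold the SCAP-SREBP complex back when sterol is plentiful. SREBP-2, from Srebf2, acts mainly on sterol genes, and SREBP-1, from Srebf1, mainly on fatty acid genes.

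SREBP binds sterol regulatory elements close to gene starts, usually beside sites for NF-Y (CCAAT) or Sp1 (GGGCGG). RefSeq promoters on GRCm38.p6 were matched by symbol for 24 of the 31 members. Within the 250 bases before the start, on either strand, the sterol regulatory element TCACNCCAC occurred in 1 of these 24 genes, Hmgcs1, and in 1.22% of 27025 genes. CCAAT occurred in 18 of 24 and in 37.5% of all genes, GGGCGG in 20 of 24 and in 35.4%, and the E-box CACGTG in 5 of 24 and in 6.86%. These are exact matches of letters, not measured binding. The sterol regulatory element was searched only as TCACNCCAC, so a gene with no match may still hold such an element in other letters. The last 150 bases before the start are shown for 6 members that passed a test below, with these motifs in capitals on whichever strand they lay. The windows are chr13:119690201-119690350 for Hmgcs1, chr10:76531455-76531604 for Lss and chrX:72918371-72918520 for Nsdhl, on the plus strand. Those on the minus strand are chr17:12960726-12960875 for Acat2, chrX:8193513-8193662 for Ebp and chr1:121332590-121332739 for Insig2, the last at the 1 of 3 listed starts nearest the annotated start of the gene. The element of Hmgcs1 stands in its window as TCACCCCAC, a form found before 150 of the 27025 genes. The only Acaca start listed lay 65766 bases from the annotated start of the gene and is not shown.
Hmgcs1: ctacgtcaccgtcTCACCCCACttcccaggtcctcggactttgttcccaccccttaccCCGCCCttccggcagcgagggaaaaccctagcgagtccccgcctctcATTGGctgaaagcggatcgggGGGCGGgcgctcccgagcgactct
Acat2: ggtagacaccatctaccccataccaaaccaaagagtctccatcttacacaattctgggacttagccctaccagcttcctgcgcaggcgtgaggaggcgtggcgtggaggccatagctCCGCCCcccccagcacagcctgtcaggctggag
Lss: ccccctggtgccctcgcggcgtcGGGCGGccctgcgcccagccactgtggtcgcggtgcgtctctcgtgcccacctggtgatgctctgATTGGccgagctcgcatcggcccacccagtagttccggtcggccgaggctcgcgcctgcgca
Nsdhl: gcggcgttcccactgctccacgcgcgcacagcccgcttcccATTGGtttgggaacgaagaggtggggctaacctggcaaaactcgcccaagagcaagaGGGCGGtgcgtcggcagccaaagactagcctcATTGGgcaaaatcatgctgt
Ebp: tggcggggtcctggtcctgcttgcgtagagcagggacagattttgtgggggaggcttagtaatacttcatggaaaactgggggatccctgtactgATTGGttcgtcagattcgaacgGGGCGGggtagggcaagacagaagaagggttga
Insig2: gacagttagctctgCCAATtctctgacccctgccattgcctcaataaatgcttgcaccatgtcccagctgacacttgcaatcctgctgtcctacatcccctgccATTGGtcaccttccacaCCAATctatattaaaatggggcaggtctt
The Nsdhl window holds 2 CCAAT boxes and 1 GC box, and the Insig2 window holds 3 CCAAT boxes and no GC box. Acat2 shows 1 GC box and no CCAAT box, while Lss and Ebp show 1 of each.

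Library totals ran from 12738585 to 23688253 counts, and all 31 members passed the filter on low counts. Ring1, the gene targeted by the Ring1a shRNA, stood at 20.2 and 9.73 CPM (counts scaled to library size) in the controls of sets 20 and 28, and at 4.51 and 1.41 CPM in the knockdown. With DS3201 it stood at 20.4 and 7.51 CPM under the control shRNA and at 3.52 and 2.04 CPM under the Ring1a shRNA, so every library labelled with the Ring1a shRNA lay below every library labelled with the control shRNA. The summed level of 13 fibroblast markers was 22900 to 23320 CPM in the controls, 21000 to 23810 in the knockdown, 15470 to 17110 in the inhibitor group and 14310 to 16210 in the combined group, nearly all of it Col1a1, Col1a2, Col3a1, Fn1, Vim and Sparc. Thy1 and Lum were at or near 0 in all 8 libraries. Other markers went both ways with DS3201. In the controls and the inhibitor group, in the order of sets 20 and 28, Pdgfra stood at 0.19 and 1.95 CPM against 8.95 and 21.9, and Dcn at 0 and 0.27 CPM against 7.14 and 6.71. In the same order, Pdgfrb fell from 153 and 180 CPM to 67.8 and 49.5, and Postn from 503 and 1161 CPM to 233 and 730. In the DS3201 comparison averaged over both shRNAs, the edgeR adjusted p was 0.104 for Pdgfra (0.00246 with the set as a block) and 0.0220 for Dcn (0.00196). At adjusted p below 0.05 without the block, 1 of the 11 fibroblast markers tested was lower and 1 higher, against 0.216% and 5.24% of entries. With the block 6 were lower (Col1a1, Col1a2, Col3a1, Pdgfrb, Postn and S100a4) and 2 higher, against 4.16% and 12.9%. Of markers of other cell types, Lyz2, from the macrophage list, rose from 0.05 and 0.27 CPM to 5.27 and 5.39 (adjusted p = 0.00664), and Tek, from the endothelial list, rose from 0.14 and 0.60 CPM to 5.21 and 2.56 (adjusted p = 0.0390). Itgam, also on the macrophage list, fell from 8.46 and 2.01 CPM to 1.59 and 0.44. With the block 1 of the 5 macrophage markers tested was called higher and 1 lower, against 12.9% and 4.16% of entries. Of the 4 endothelial markers tested, 1 was called higher and 0 lower in either fit. The share of entries called higher was 5.24% without the block and 12.9% with it. Kdr, the most abundant endothelial marker, stood at 9.17 and 21.1 CPM in the controls and 12.5 and 14.4 CPM in the inhibitor group. Dcn, Lyz2 and Tek stood near the floor without DS3201. They passed the filter on low counts through libraries with it and could hardly be called lower. The summed level of 10 adipocyte markers was 573 to 575 CPM in the controls, 562 to 578 in the knockdown, 394 to 572 in the inhibitor group and 324 to 347 in the combined group, nearly all of it Lpl and Pparg, and the defining markers Adipoq, Plin1, Cidec and Lep were at or near 0 throughout. In the averaged DS3201 comparison with the block, 2 of the 6 adipocyte markers tested were lower (Pparg and Lpl) and 1 higher (Cd36). The shares of entries were 4.16% and 12.9%, and without the block 0 of the 6 were called. Cd36 stood at 0.05 and 2.15 CPM in the controls and 0.79 and 18.5 CPM in the inhibitor group. The part of these shifts in the results below was not tested. In bulk RNA, fewer cells of a type and less RNA per cell cannot be told apart.

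Together the members made up 0.616% of all counts in the control library of set 20 and 0.361% in that of set 28. The share was 0.461% and 0.359% in the knockdown, 0.470% and 0.222% in the inhibitor group, then 0.378% and 0.280% in the combined group. In each set the control had the highest share. Per kilobase of exon, Scd2, a stearoyl-CoA desaturase, had the highest control level, at 230 ± 114 RPKM (SD, n = 2), followed by Hmgcs1 at 64.3 ± 17.7 RPKM and Fads1 at 56.5 ± 5.71 RPKM. The order of Hmgcs1, Fads1 and the next member, Fads2 at 54.0 ± 10.1 RPKM, lay within the spread of the libraries. Tm7sf2, a sterol reductase, was lowest at 0.22 ± 0.12 RPKM, with 9 to 31 counts per library.

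With DS3201 most members were lower, and none passed a test in the upward direction. The log2 ratio of a library with DS3201 to the library of the same shRNA and set without it was below 0 in all 4 such pairs for 20 of the 31 members, or 64.5%, against 18.9% of all 15287 entries tested. It was above 0 in all 4 pairs for 0 members, against 25.2% of entries. The 20 were 11 of the 17 sterol members, 6 of the 8 fatty acid members and 3 of the 5 regulators. This count takes no account of size. In set 28 the ratio was -0.0018 for Mvk under the Ring1a shRNA and -0.0026 for Hmgcs1 under the control shRNA. A stricter order, in which all 4 libraries with DS3201 lay below all 4 without, held for 3 of the 31, or 9.68%, against 5.28% of entries: Pmvk, which makes mevalonate diphosphate, Fads1 and Insig2.

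**Figure D1:**
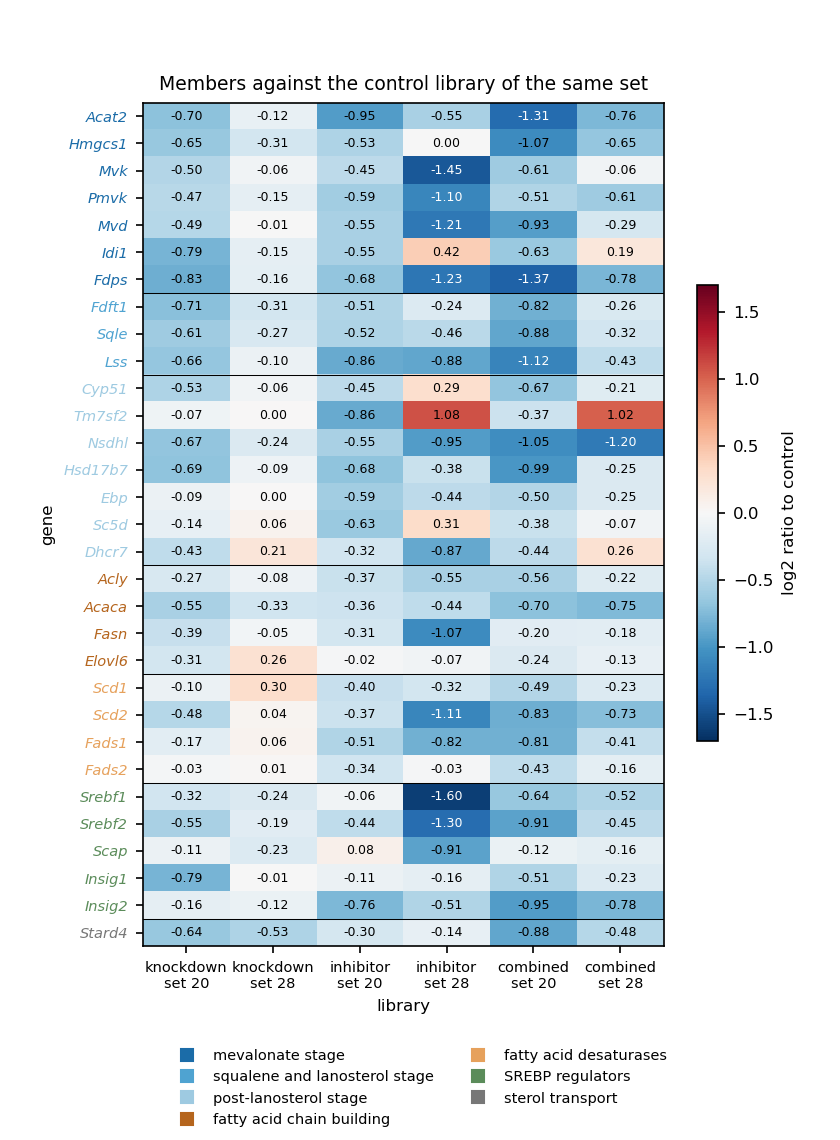
Each cell gives the log2 ratio of a member's CPM to the control library of the same set, for the knockdown, inhibitor and combined libraries of sets 20 and 28, with genes coloured by role. Blue fills most of the inhibitor and combined columns, the inhibitor library of set 28 holds the lowest value (Srebf1, -1.60), and Tm7sf2 in that library is the highest at 1.08.

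Averaged over both shRNAs, the DS3201 comparison had a median log2 fold change of -0.38 over the sterol members and -0.33 over the fatty acid members, beside 0.04 over all entries tested. Set 20 alone gave medians of -0.47 and -0.34, and set 28 alone gave -0.35 and -0.42, so the order of the classes differed between sets. Tests across all entries used edgeR's quasi-likelihood fit, and a member is said to pass when its Benjamini-Hochberg adjusted p was below 0.05. Without a term for the set, 1 member passed, Insig2, against 0.216% of entries called lower and 5.24% called higher. With the set as a replicate block, 7 members passed, all lower (Acat2, Lss, Nsdhl, Ebp, Scd1, Fads1 and Insig2), against 4.16% of entries called lower and 12.9% called higher. These were 4 of 17 sterol members, 2 of 8 fatty acid members and 1 of 5 regulators. With 2 libraries per group, the sterol and fatty acid classes were set side by side by count and median only.

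**Figure D2:**
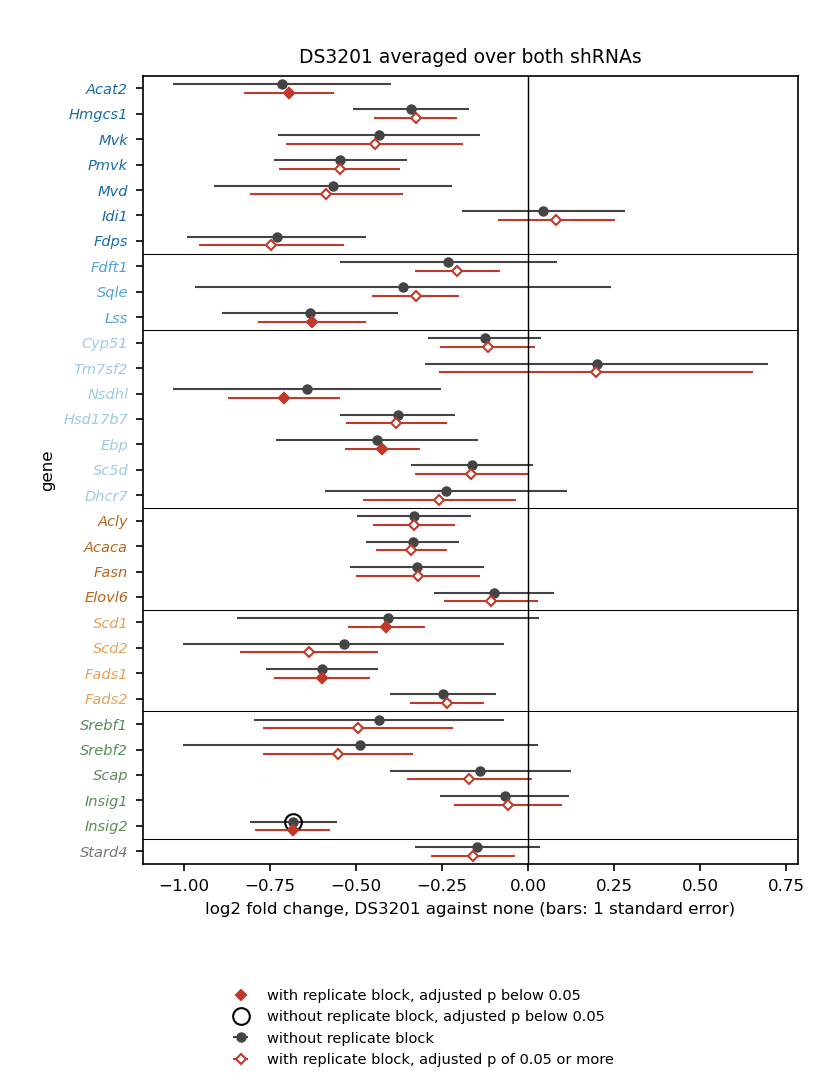
Points give the log2 fold change of each member for DS3201 against none, averaged over both shRNAs, with bars of 1 standard error, for the fits without (circles) and with (diamonds) the replicate block. The points of 29 of the 31 members lie below 0, and Idi1 and Tm7sf2 lie above it.

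Within the mevalonate stage, 6 of 7 members were below 0 in all 4 pairs with DS3201, and the averaged median was -0.55. Some pairs were close to level: under the Ring1a shRNA, Mvk had a ratio of -0.0018 in set 28 and Pmvk -0.04 in set 20. Acat2 (chr17:12942890-12960747), the cytosolic thiolase that joins 2 acetyl-CoA units, stood at 105 and 48.7 CPM in the controls of sets 20 and 28, 64.8 and 44.7 in the knockdown, 54.4 and 33.3 in the inhibitor group, then 42.4 and 28.7 in the combined group. Within each set both libraries with DS3201 lay below both without it, while across sets the groups overlapped. The averaged log2 fold change was -0.72 ± 0.32 (SE, edgeR adjusted p = 0.311), and with the block Acat2 fell by 0.69 ± 0.13 on the log2 scale (adjusted p = 0.0131). In GENCODE M21 transcripts, 39.1% of the 50-base words of Acat2 also occur in the related gene Acat3, so reads may be shared between them. Acat3 stood at 67.6 and 57.9 CPM in the controls and at 56.6 and 60.7 CPM in the inhibitor group, and its averaged log2 fold change was -0.12 ± 0.14 (adjusted p = 0.736).

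Hmgcs1 (chr13:119690379-119708260), which makes HMG-CoA, stood at 353 and 238 CPM in the controls, 226 and 192 in the knockdown, 245 and 238 in the inhibitor group, then 168 and 151 in the combined group. Both combined libraries lay below the other 6, and the inhibitor library of set 28 equalled its control within a log2 ratio of 0.01. The averaged DS3201 change was -0.34 ± 0.17 (edgeR adjusted p = 0.371; 0.113 with the block). Of the other mevalonate members, Fdps, which makes farnesyl diphosphate, had an averaged change of -0.73 ± 0.26 (adjusted p = 0.204; 0.0532 with the block). Mvk, Pmvk and Mvd ranged from -0.57 to -0.43. Idi1, the isopentenyl diphosphate isomerase, was the exception at 0.04 ± 0.24, with ratios of -0.55 and 0.42 in sets 20 and 28 under the control shRNA. Fdps shares 26.7% of its exonic length with the same-strand gene model Gm43738, so its counts are uncertain. Of the 50-base words of Idi1 25.3%, and of those of Hmgcs1 11.6%, also occur in other gene models, so their reads may be shared too.

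The squalene and lanosterol stage had an averaged median of -0.36 over its 3 members. Lss (chr10:76531588-76557138), lanosterol synthase, stood at 74.7 and 43.0 CPM in the controls, 47.2 and 40.0 in the knockdown, 41.1 and 23.3 in the inhibitor group, then 34.2 and 31.9 in the combined group. Its highest library with DS3201, at 41.1 CPM, lay above its lowest without, at 40.0 CPM, and all other libraries kept apart. The averaged change was -0.63 ± 0.26 (edgeR adjusted p = 0.266), and with the block Lss fell by 0.63 ± 0.16 (adjusted p = 0.0366). Sqle, the squalene epoxidase, and Fdft1, the squalene synthase, had averaged changes of -0.36 ± 0.60 and -0.23 ± 0.32, and neither passed with the block (adjusted p = 0.128 and 0.295). Fdft1 overlaps exons of Ctsb on the opposite strand over 18.3% of its length, and the labels do not say whether counting used strand.

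After lanosterol, 3 of 7 members were below 0 in all 4 pairs, and the averaged median was -0.24. Nsdhl (chrX:72918557-72958514), which removes the C4 methyl groups as part of a demethylation complex, stood at 46.0 and 25.2 CPM in the controls, 28.9 and 21.3 in the knockdown, 31.4 and 13.0 in the inhibitor group, then 22.1 and 10.9 in the combined group. In set 28 both libraries with DS3201 lay below both without, whereas in set 20 the knockdown lay below the inhibitor library. The averaged change was -0.64 ± 0.39 (edgeR adjusted p = 0.467), and with the block Nsdhl fell by 0.71 ± 0.16 (adjusted p = 0.0270). Ebp (chrX:8185329-8193512), the sterol isomerase, stood at 56.9 and 32.5 CPM in the controls, 53.3 and 32.5 in the knockdown, 37.8 and 23.9 in the inhibitor group, then 40.2 and 27.3 in the combined group. The libraries with DS3201 were the lower ones within each set at either shRNA. The averaged change was -0.44 ± 0.29 (adjusted p = 0.516), and with the block Ebp fell by 0.42 ± 0.11 (adjusted p = 0.0385). Cyp51, Hsd17b7, Sc5d and Dhcr7 ranged from -0.38 to -0.13, and Tm7sf2 stood at 0.20 ± 0.50. None of these 5 passed in either fit.

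All 4 desaturases were below 0 in every pair with DS3201, with an averaged median of -0.47. Fads1 (chr19:10182888-10196877), the delta-5 desaturase of polyunsaturated fatty acids, stood at 291 and 252 CPM in the controls, 258 and 264 in the knockdown, 205 and 143 in the inhibitor group, then 166 and 190 in the combined group. All 4 libraries with DS3201 lay below all 4 without. The averaged change was -0.60 ± 0.16 (edgeR adjusted p = 0.102), and with the block Fads1 fell by 0.60 ± 0.14 (adjusted p = 0.0275). Fads2, its neighbour 81.1 kb away on chromosome 19, had a change of -0.25 ± 0.15 (adjusted p = 0.183 with the block).

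Scd1 (chr19:44394455-44407879), which makes monounsaturated fatty acids, stood at 337 and 139 CPM in the controls, 313 and 171 in the knockdown, 255 and 111 in the inhibitor group, then 239 and 118 in the combined group. Set 20 lay above set 28 in all 4 groups, and within each set the libraries with DS3201 were the lower ones. The averaged change was -0.41 ± 0.44 (edgeR adjusted p = 0.706), and with the block Scd1 fell by 0.41 ± 0.11 (adjusted p = 0.0463). Scd2, 87.6 kb from Scd1, had a change of -0.54 ± 0.47 (adjusted p = 0.0753 with the block). Scd1 and Scd2 share under 5% of their 50-base words with other genes, their family members first among them.

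Of the chain-building enzymes, 2 of 4 were below 0 in all 4 pairs, and the averaged median was -0.33. Acaca (chr11:84129672-84401651), the acetyl-CoA carboxylase that makes malonyl-CoA, stood at 148 and 131 CPM in the controls, 101 and 104 in the knockdown, 115 and 97.0 in the inhibitor group, then 91.4 and 78.2 in the combined group. Both controls lay above all other libraries, and both combined libraries lay below all others. Its averaged DS3201 change was -0.33 ± 0.14 (edgeR adjusted p = 0.266; 0.0699 with the block). Acly, which supplies cytosolic acetyl-CoA, and Fasn, the fatty acid synthase, had changes of -0.33 ± 0.17 and -0.32 ± 0.20, and Elovl6, an elongase, stood at -0.10 ± 0.17. Of the 50-base words of Acaca, 30.4% occur in other gene models, mostly Gm5182, which has no row in the table.

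Among the regulators, Insig2 passed in both fits. The gene (chr1:121304353-121332589), whose product holds SCAP in the endoplasmic reticulum, stood at 53.8 and 50.6 CPM in the controls, 48.3 and 46.6 in the knockdown, 31.7 and 35.5 in the inhibitor group, then 27.9 and 29.4 in the combined group. All 4 libraries with DS3201 lay below all 4 without, and the sets lay close together in each group. Insig2 fell by 0.68 ± 0.13 on the log2 scale, or by 37.7% (edgeR adjusted p = 0.0309), and with the block by 0.68 ± 0.11 (adjusted p = 0.00672). Leaving out either control, knockdown or combined library raised its adjusted p to between 0.0988 and 0.129, while leaving out either inhibitor library gave 0.0405 and 0.0482. Insig1, the other INSIG gene and itself an SREBP target, had a change of -0.07 ± 0.19. Srebf1, Srebf2 and Scap had averaged changes of -0.43 ± 0.36, -0.49 ± 0.52 and -0.14 ± 0.26, and none of the 3 passed in either fit.

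**Figure D3:**
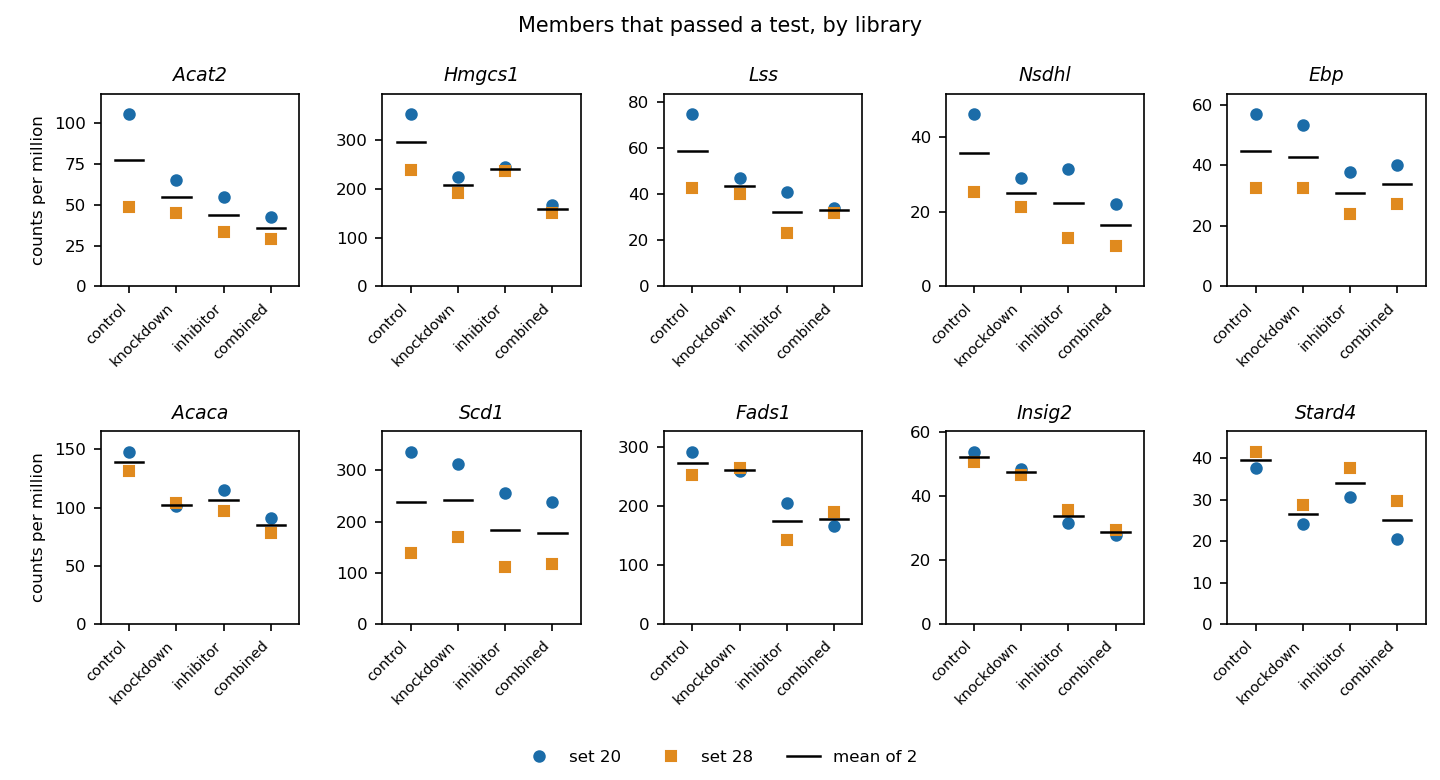
Points give CPM in each library for the 10 members that passed a test in any comparison, with set 20 as circles, set 28 as squares and a bar at the mean of 2. For Insig2 and Fads1 all libraries with DS3201 lie below all without. For Acat2, Hmgcs1, Lss, Nsdhl, Ebp and Scd1 the set 20 points lie above the set 28 points in every group.

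The inhibitor library of set 28 stood apart. Under the control shRNA, the ratio to the control of the same set was -1.60 for Srebf1 there, against -0.06 in set 20. It was -1.45 against -0.45 for Mvk, -1.30 against -0.44 for Srebf2, -1.07 against -0.31 for Fasn and -0.91 against 0.08 for Scap. Genes at the other end included Tm7sf2 at 1.08 against -0.86 and Idi1 at 0.42 against -0.55. That library had the smallest total, 12738585 counts, and a TMM scaling factor of 0.889, against 0.971 or more in the other 7. Among listed cell cycle genes, Mki67 stood at 1150 CPM in it and at 488 CPM in the control of set 28. Top2a, Ccnb1 and Pcna were also higher there than in that control, and Mcm2 and Mcm5 were lower. Why this library stood apart was not tested. The part of this library in the comparisons was examined by leaving it out: in the fit with the block, 13 members then passed the averaged DS3201 comparison in place of 7, all lower. Calls over all entries rose too, to 1867 lower (11.8%) and 2253 higher (14.2%), from 636 lower and 1974 higher with all libraries. The 13 were Acat2, Hmgcs1, Fdps, Lss, Nsdhl, Ebp, Sc5d, Acaca, Scd1, Scd2, Fads1, Fads2 and Insig2.

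Split by shRNA, DS3201 gave a sterol median of -0.53 with the control shRNA and -0.22 with the Ring1a shRNA, and fatty acid medians of -0.42 and -0.29. With the control shRNA 0 members passed with or without the block, against 0.706% and 0% of entries called lower and 6.62% and 0.726% called higher; unadjusted p was below 0.05 for 4 members without the block and 16 with it, all lower, against 2.13% and 7.29% of entries lower and 10.3% and 17.3% higher. DESeq2 called 1 member, Insig2, and 67 entries lower and 731 higher. With the Ring1a shRNA 0 passed without the block, where unadjusted p was below 0.05 for 1 member and 1.42% of entries, both lower, and 1 with it, Insig2 at -0.73 ± 0.15 (edgeR adjusted p = 0.0366), against 0% and 0.824% of entries called lower and 0.602% and 6.05% called higher. The difference between these 2 responses, tested as the interaction of knockdown and inhibitor, was called for 0 members by edgeR in both fits and by DESeq2, against 0% of entries in both edgeR fits, and unadjusted p was below 0.05 for 0 members and, without the block, for 9 entries higher and 14 lower. Its median was 0.30 over the sterol members and 0.08 over the fatty acid members, beside -0.07 over all entries.

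Against the control, the combined group had a sterol median of -0.61 and a fatty acid median of -0.41, beside 0.02 over all entries. In set 20 these were -0.82 and -0.53, and in set 28 -0.26 and -0.23. The ratio was below 0 in both sets for 28 of 31 members, or 90.3%, against 34.9% of entries, with Idi1, Tm7sf2 and Dhcr7 as the exceptions. Without the block 0 members passed, against 0.0327% of entries called lower and 1.43% called higher; unadjusted p was below 0.05 for 8 members, all lower, against 2.79% of entries lower and 10.4% higher. DESeq2 called 3 members lower (Hmgcs1, Acaca and Insig2), and 126 entries lower and 918 higher. With the block 6 passed, all lower, against 2.06% of entries called lower and 9.21% called higher: Acat2, Hmgcs1 and Nsdhl of the sterol members, Acaca of the fatty acid members, Insig2 and Stard4.

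Of these 6, Nsdhl had the lowest value with the block, -1.13 ± 0.23 (edgeR adjusted p = 0.0258; 0.492 without the block), followed by Acat2 at -1.05 ± 0.19 (adjusted p = 0.0159; 0.359 without). Hmgcs1 changed by -0.87 ± 0.17 (adjusted p = 0.0219; 0.140 without) and Insig2 by -0.87 ± 0.15 (adjusted p = 0.0159; 0.0757 without). Acaca changed by -0.72 ± 0.15 (adjusted p = 0.0258; 0.136 without), with set ratios of -0.70 and -0.75. Stard4, which carries sterol between membranes, stood at 37.7 and 41.5 CPM in the controls, 24.2 and 28.7 in the knockdown, 30.6 and 37.6 in the inhibitor group, then 20.4 and 29.7 in the combined group. Its libraries with the Ring1a shRNA, not those with DS3201, were the 4 lowest. Its combined change with the block was -0.68 ± 0.17 (adjusted p = 0.0498; 0.334 without). Without the inhibitor library of set 28, which is on neither side of this comparison but enters the shared spread, 19 members passed with the block, while entries called lower went from 315 to 1719 (10.8%) and entries called higher from 1408 to 2085.

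With the Ring1a shRNA alone, the sterol members stood lower in set 20 and near their controls in set 28. The sterol median without DS3201 was -0.61 in set 20, where 17 of 17 were below 0, and -0.10 in set 28, where 13 of 17 were. The fatty acid median was -0.29 in set 20 and 0.03 in set 28. In the pooled fit the medians were -0.39 and -0.12. No member and 0% of entries passed this comparison in either edgeR fit, and unadjusted p was below 0.05 for 0 members without the block and 5 with it, all lower, against 0.340% and 1.19% of entries lower; DESeq2 called 0 members and 1 entry. Ring1, the target of the shRNA, did not pass in either fit, at -2.42 ± 0.29 with the block (edgeR adjusted p = 0.705). The absence of calls here therefore does not show that members were unchanged. Over all 4 pairs, with and without DS3201, the ratio was below 0 throughout for 10 of 31 members, or 32.3%, against 13.8% of entries. Of these 10, 6 were sterol members (Acat2, Hmgcs1, Idi1, Fdft1, Cyp51 and Nsdhl), 1 was a fatty acid member (Acaca), and the others were Insig1, Insig2 and Stard4.

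**Figure D4:**
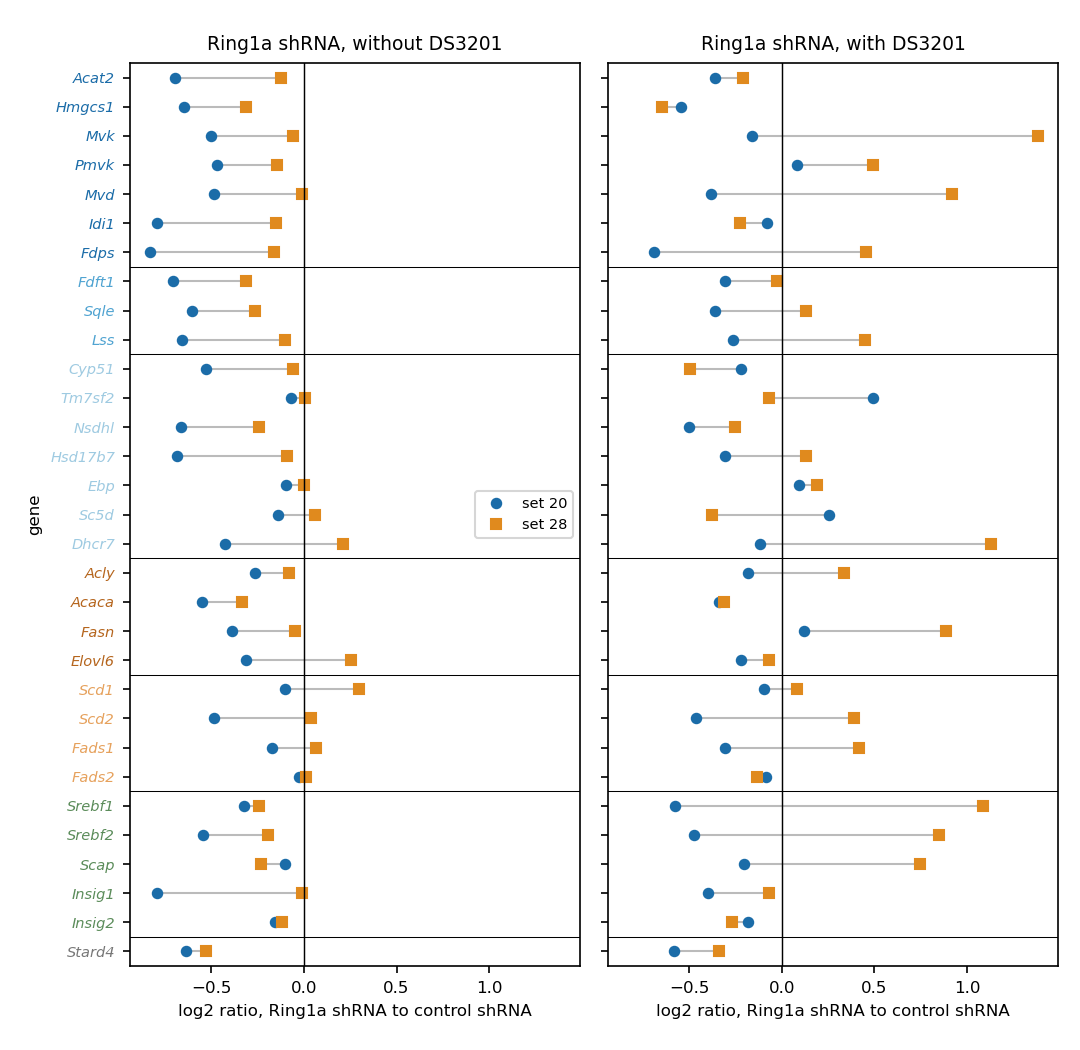
Each pair of points gives a member's log2 ratio of Ring1a shRNA to control shRNA in set 20 (circles) and set 28 (squares), without DS3201 on the left and with it on the right. On the left the circles lie below 0 for all 31 members and the squares for 22, and on the right the squares of Mvk, Dhcr7, Srebf1 and Mvd, taken against the inhibitor library of set 28, lie near or above 1.

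Under DS3201 the knockdown medians were -0.09 for sterol and -0.07 for fatty acid members, with 0.13 and 0.21 in set 28, where the comparison rests on the inhibitor library that stood apart. Averaged over both inhibitor states they were -0.23 and -0.06. In both comparisons 0 members and 0% of entries passed in either edgeR fit, and DESeq2 called 0 members in either. Ring1 did not pass in these edgeR fits either (adjusted p with the block = 0.594 and 0.132). Unadjusted p without the block was below 0.05 for 1 member under DS3201 and for 3 in the average, all lower, against 0.968% and 1.41% of entries lower. With the block it was below 0.05 for 2 and 7 members, all lower, against 4.04% and 4.44% of entries lower. The 7 included 5 of 17 sterol members and 1 of 8 fatty acid members. The largest averaged changes were -0.55 ± 0.17 for Hmgcs1 (adjusted p = 1; 0.298 with the block) and -0.51 ± 0.18 for Stard4 (adjusted p = 1; 0.314 with the block).

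The sets themselves differed for several members. In the fit with the block, a comparison added after the values were seen, 8 of 31 members, or 25.8%, were higher in set 20 and 0 higher in set 28, against 13.9% and 11.7% of entries. Sqle, at a mean of 261 CPM in set 20 and 87.6 CPM in set 28, was 2.93-fold higher in set 20 (edgeR adjusted p = 0.00116). Srebf2 was 2.32-fold higher (adjusted p = 0.0104), Scd1 2.13-fold (adjusted p = 0.00187) and Scd2 2.12-fold (adjusted p = 0.0114). Nsdhl, Fdft1, Acat2 and Ebp were 1.61-fold to 1.86-fold higher. Insig2, Fads1, Fasn and Sc5d had set differences between -0.12 and 0.02 on the log2 scale.

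**Figure D5:**
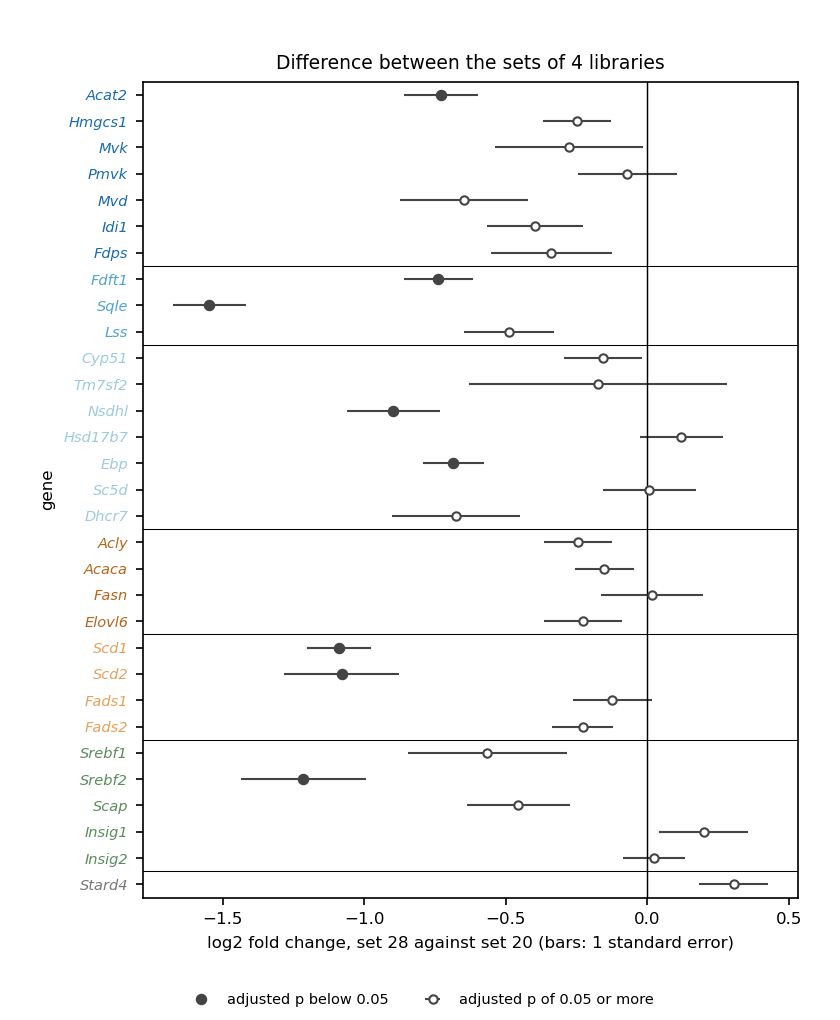
Points give the log2 fold change of set 28 against set 20 for each member with bars of 1 standard error, filled where the adjusted p was below 0.05. All 8 filled points lie left of 0, the farthest being Sqle at -1.55.

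Other genes of the pathway were taken from fixed lists. Of 7 further sterol synthesis genes, 1 passed the averaged DS3201 comparison, downward, against 0.216% of entries called lower. This was Aacs, which makes acetoacetyl-CoA from acetoacetate. Aacs fell by 0.89 ± 0.19 (edgeR adjusted p = 0.0487), from 65.1 and 59.4 CPM in the controls to 35.6 and 21.4 CPM in the inhibitor group. Msmo1, the C4-methylsterol oxidase, passed in the combined comparison with the block only, at -1.07 ± 0.26 (adjusted p = 0.0433; 0.139 without). There 2.06% of entries were called lower. Of the 10 tested genes of sterol uptake, storage and movement, 0 passed without the block. With it Vldlr, the VLDL receptor, rose by 2.70 ± 0.66 (adjusted p = 0.0331; 0.171 without), at 0.62 and 0.07 CPM in the controls and 2.49 and 2.12 CPM in the inhibitor group. In that fit 12.9% of entries were called higher, and Vldlr stood near the floor without DS3201. None of 9 genes of SREBP processing passed; the most abundant, Mbtps1, which makes the site-1 protease, changed by -0.15 ± 0.20 in the averaged comparison.

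Of 16 tested genes on the list of further fatty acid synthesis and elongation genes, 2 were called higher without the block and 3 with it in the averaged comparison, against 5.24% and 12.9% of entries, and 0 were called lower. The median of the 16 was -0.03. Scd3, a further stearoyl-CoA desaturase, stood at 1.76 and 1.01 CPM in the controls and 7.76 and 7.33 CPM in the inhibitor group, and rose by 2.77 ± 0.32 (edgeR adjusted p = 0.00797). It shares 4.77% of its 50-base words with Scd1. Acsl3, an acyl-CoA synthetase, rose by 0.78 ± 0.15 (adjusted p = 0.0351), from 61.5 and 48.7 CPM to 92.7 and 118 CPM. Elovl7, an elongase, rose with the block by 1.67 ± 0.28 (adjusted p = 0.00777; 0.270 without). Of the 5 tested liver X receptors and targets, 2 rose in both fits, the sterol exporters Abca1 and Abcg1. Abca1 had 3 counts over both controls and 298 over both inhibitor libraries, a 123-fold ratio (95% exact counting interval 41.8 to 601). Under the Ring1a shRNA Abca1 had 29 counts in the knockdown and 433 in the combined group, an 18.7-fold ratio (12.8 to 28.2). The edgeR adjusted p of Abca1 in the comparison averaged over both shRNAs was 0.00791. Abcg1 had 0 counts in the controls and in the knockdown and 32 in the inhibitor group, at least 13.2-fold higher with 3 counts over the controls as the floor (adjusted p = 0.0202 in the averaged comparison). With so few counts without DS3201, both genes passed the filter on low counts only through libraries with it. They could hardly be called lower, so these 2 calls say nothing on the direction of the list. The intervals and the floor cover counting error only.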

How the data were processed

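Polyadenylated RNA of 8 libraries was sequenced. The submitters' processing notes name Trim Galore, TopHat2 and the mm10 build. The authors deposited raw counts per gene and repeat subfamily. Not given in the sources used here are tool versions and the counting tool with its annotation, strand setting and rule for shared reads. The table holds 25215 entries, and 8 of its columns matched no labelled sample and were not used.

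Columns were assigned to groups by name. The prefixes 20 and 28 served as a replicate block, because the labels number shared batches and the set differences of different groups correlated at 0.559 to 0.897. The labels do not say which prefix is which batch. Counts were fitted with edgeR 4.0.16 (R 4.3.3): TMM scaling, filterByExpr by group, robust quasi-likelihood fits with 1 term per group over all 8 libraries, p-values adjusted by Benjamini-Hochberg over the 15287 entries tested, threshold 0.05. Errors of log2 fold changes are standard errors. CPM use TMM-scaled totals. Log2 ratios of single libraries add a prior count of 2. RPKM use exonic lengths from GENCODE M21 (GRCm38, the build of mm10). Alternatives were the block, DESeq2 1.42.0, RLE scaling, no filter, gene rows only, only the libraries compared, and leaving out each library. Scripts were tested on simulated data.

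Per-library values and full statistics are given for members that passed in either fit in any comparison, and other pathway genes are named by the same rule, or as the most abundant of a list where none passed. Members and lists were chosen with earlier results of these data known. Acat3 and the comparison of sets were chosen after seeing the values. A count of the words shared between transcripts used both strands. A pathway gene that this rule would name is not reported here.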

Additional observations from a re-analysis of the deposited data

How the results depend on the processing

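With the replicate block the number of members called moved from 0 to 6 for combined against control, from 0 to 1 for DS3201 with the Ring1a shRNA and from 1 to 7 for DS3201 averaged, and it changed no other count. DESeq2 called 1 for DS3201 with the control shRNA, 3 for combined against control, 1 for DS3201 with the Ring1a shRNA and 2 averaged, beside 67, 126, 38 and 263 entries called lower. With the replicate block, once the set 28 inhibitor library was left out, an alternative chosen after seeing the data, the counts were 1, 19, 5 and 13, and entries called lower were 259, 1719, 844 and 1867, against 108, 315, 126 and 636 with all libraries and the block. The cause was not tested. RLE scaling, no filter and gene rows only left every count of members as it was, and so did fitting only the libraries compared, which was not possible for the averaged and interaction comparisons. Leaving out each library in turn gave 0 to 5 members for DS3201 averaged, the 5 (Mvk, Fdps, Fads1, Srebf1 and Insig2) without the inhibitor library of set 20; where a group then had 1 library, it was assumed to vary like the others. The averaged sterol median ran from -0.69 to -0.23 under this omission (-0.47 in set 20 alone), and the fatty acid median from -0.49 to -0.25 (-0.42 in set 28 alone). For combined against control the medians ran from -0.76 to -0.18 (sterol) and from -0.64 to -0.20 (fatty acid). Signs reversed under such omissions for Ebp, Scd1 and Stard4, which did not pass in these comparisons without the block. For combined against control, Ebp ran from -0.76 to 0.054 and Scd1 from -1.02 to 0.36, with 0.0029 without the combined library of set 28. For DS3201 with the control shRNA, Scd1 ran from -1.10 to 0.37. With the Ring1a shRNA, Ebp ran from -0.66 to 0.061, Scd1 from -1.04 to 0.069 and Stard4 from -0.38 to 0.16. Of the alternatives for single members, 532 kept direction and side of the threshold, 43 passed where the reported fit did not, 6 no longer passed and 9 reversed. Depth limits Tm7sf2 most, with 9 to 31 counts per library.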
